A study of Mus musculus with 67 samples.

Results

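The Slc25 genes encode the mitochondrial carriers, membrane proteins that move metabolites, nucleotides and cofactors across the inner mitochondrial membrane, with a few members in other membranes. Their mRNAs were examined in mouse liver as all rows of the gene table whose symbol was Slc25a followed by a number. This gave 47 genes of 45808 rows, and 34 of them had a mean of at least 1 FPKM (fragments per kilobase of transcript, scaled to the mapped reads of the library) and were tested. Members were taken by symbol and not by a measured value, although the family was chosen with earlier results of these data known. The other 13 are given by their range.

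All mice were C57BL/6, aged 24 weeks, and all groups shared 12 weeks of high-fat diet. Food was given ad libitum or by time-restricted feeding, in which it is offered in a limited part of the day. Wild type (WT) was set beside a liver knockout of the clock activator Bmal1 (Bmal1LKO), a knockout of the clock repressors Cry1 and Cry2 (CryDKO), and a liver double knockout of the nuclear receptors Rev-erbα and Rev-erbβ (ReverbLDKO). For WT there were 12 libraries fed ad libitum and 11 under restriction, 2 at each of ZT4, 8, 12, 16, 20 and 24, apart from a single restricted library at ZT12. ZT is the zeitgeber time, in hours of the light cycle. Each feeding of Bmal1LKO gave 6 libraries, 1 per time point of that series, and CryDKO and ReverbLDKO had 8 per feeding, 1 every 3 h from ZT3 to ZT24. The sources used here do not state the hours of feeding, what drives the liver deletions, or which tissues lack the Cry genes.

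A carrier of this family has a repeated fold of membrane helices and usually exchanges a solute of the matrix for a solute of the cytosol. In hepatocytes these exchanges link the matrix to the cytosol in gluconeogenesis, the urea cycle, fatty acid synthesis and fatty acid oxidation. Carriers are made from nuclear genes and are inserted into the inner membrane by the TIM22 translocase.

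Recovered depth was 9.09 to 36.01 M reads per library, with a median of 15.62 M. At this depth the tested carriers had medians of 48 (Slc25a14) to 11542 (Slc25a15) reads per library. The 6 hepatocyte markers summed to 27249 to 84977 FPKM over all libraries, and the 4 testis germ cell markers to at most 0.0411 FPKM. Gene-level FPKM of Arntl, the symbol of Bmal1, ran from 2.00 to 7.09 in Bmal1LKO and from 0.416 to 12.6 in WT, and that of Nr1d1, the symbol of Rev-erbα, from 4.82 to 71.8 in ReverbLDKO and from 0.122 to 33.3 in WT. The deleted parts are not given in the labels, so these levels do not check them. The log2 values of a library had a slope against the GC content of the genes, and WT stood apart in it. Per 10 points of GC, the median slope was 0.302 for WT fed ad libitum, -0.106 for restricted WT replicate 1 and -0.746 for restricted WT replicate 2, against group medians of -0.011 to 0.122 in the mutants. Results on WT are therefore also given after correction of each library for GC content and exon length. In bulk liver, fewer cells of a type and less RNA per cell cannot be told apart, and since the labels do not say that libraries came from separate animals, p-values measure only the spread between libraries.

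FPKM is scaled by length, so levels of different carriers can be set side by side, but it is not corrected for GC content. Slc25a47, a carrier found mainly in liver, had the highest mean level, 316 FPKM over 67 libraries, with a range of 69.92 to 2151. Slc25a15, the ornithine carrier of the urea cycle, followed at 144 FPKM. Next came Slc25a39, required for import of glutathione into mitochondria, at 122 FPKM. Slc25a13 (citrin, the aspartate and glutamate carrier of liver) was at 92.6, Slc25a5 (an adenine nucleotide translocase) at 92.4 and Slc25a1 (the citrate carrier) at 87.0 FPKM. This order of means over all libraries did not hold in every group. In ad libitum WT Slc25a39 (174 FPKM) and Slc25a1 (130) had higher means than Slc25a15 (121), and in restricted WT Slc25a39 (71.6) had a lower mean than Slc25a13 (104), Slc25a5 (79.1) and Slc25a1 (72.4). Slc25a39 and Slc25a1 have 59.7% and 59.1% GC, and Slc25a15, Slc25a13 and Slc25a5 have 48.5%, 47.0% and 48.6%. The part of the GC slope of the WT libraries in these orders was not tested. Related carriers differed in level to unlike degrees. Slc25a12 (aralar), the paralog of Slc25a13, was at 2.71 FPKM, and the ADP/ATP translocases Slc25a4 and Slc25a31 were at 3.08 and 0.0799 beside Slc25a5. The mitoferrins Slc25a28 and Slc25a37 were at 7.34 and 4.87, and the ATP-Mg carriers Slc25a23 and Slc25a25 at 48.8 and 23.2 FPKM.

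The 13 carriers under the filter had means of 0 to 0.831 FPKM, the highest being Slc25a29, a carrier of basic amino acids. Slc25a54 was listed at 0 in all 67 libraries, Slc25a41 in 65 and Slc25a18 in 60. Slc25a2, Slc25a31 and Slc25a43 were listed at 0 in 21, 15 and 32 libraries and did not pass 0.485 FPKM in any. Slc25a27 reached 0.622, Slc25a53 0.582, Slc25a35 0.847 and Slc25a36 0.899 FPKM. Slc25a24, Slc25a29 and Slc25a40 passed 1 FPKM in at least 1 library, with highest values of 1.10, 2.42 and 1.07.

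**Figure D1:**
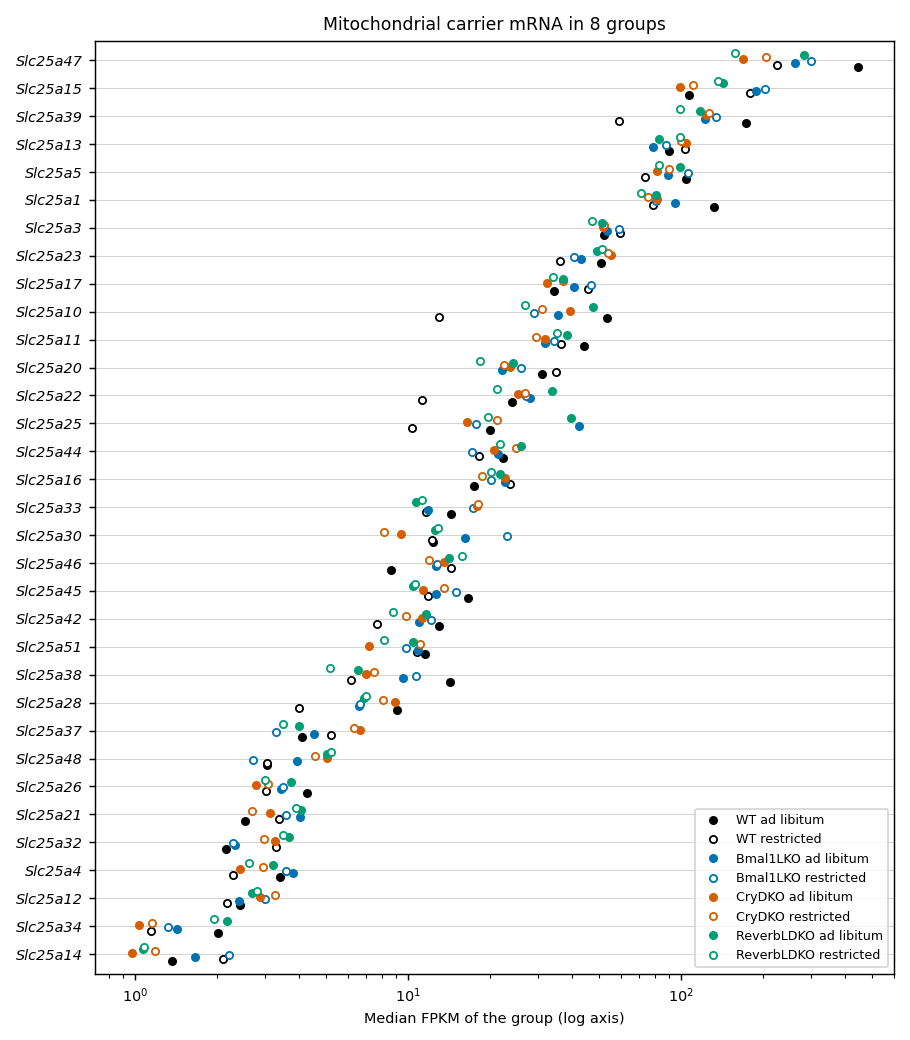
Median FPKM (log axis) of 33 of the 34 tested carriers in the 8 groups, ordered by mean level. Filled points are ad libitum groups and open points restricted groups; the restricted WT point lies far to the left of the others for Slc25a10 (13.0 FPKM), Slc25a39 (59.3) and Slc25a22 (11.2).

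Levels moved little between groups for some carriers and several-fold for others. The ratio of the highest to the lowest group median had a median of 1.76 over the 34 carriers and of 1.84 over all 9958 tested genes. It was smallest for Slc25a3, the phosphate carrier (59.7 against 47.3 FPKM, a ratio of 1.26), and for Slc25a13 (104 against 78.6 FPKM, 1.32). It was largest for Slc25a10, the dicarboxylate carrier (53.6 against 13.0 FPKM, 4.14), and for Slc25a25, a calcium-regulated carrier of ATP-Mg and phosphate (42.1 against 10.3 FPKM, 4.09). The highest median was in ad libitum WT for 12 of 34 carriers and for 19.5% of all tested genes, and the lowest was in restricted WT for 10 of 34 and for 26.1%.

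Restricted and ad libitum feeding were first compared within WT. Of the 34 carriers, 26 passed the test, 9 higher and 17 lower under restriction, where 64.0% of all tested genes passed (28.6% higher and 35.4% lower). The median difference was -0.303 over the carriers and -0.030 over all genes, on the log2(FPKM + 1) scale used for every difference below. The tests were made with limma, with Benjamini-Hochberg adjustment over all genes. The difference followed the GC content of the carrier: over the 34 carriers Pearson's r was -0.84 and Spearman's rho -0.86, and after the correction they were -0.24 and -0.17. These correlations are across genes that share the same libraries. After correction 15 carriers passed, 2 higher and 13 lower, where 39.2% of 9581 genes passed (8.83% higher and 30.4% lower). Of the 26 first calls, 11 lower and 2 higher calls passed again with the same sign, 12 did not pass, and Slc25a3 passed with the opposite sign. Without restricted WT replicate 2, 10 carriers passed, 3 higher and 7 lower, where 28.7% of all genes did (9.83% higher and 18.9% lower). Of the WT feeding differences described below, only that of Slc25a10 is also given without this replicate. The part of GC content in the WT differences was not tested beyond these values. Some marker lists of other cell types also differed between the WT groups. The 5 fat markers summed to 0.761 to 46.5 FPKM ad libitum (median 15.9) and to 0.179 to 7.50 restricted (median 1.07), mostly Cfd (medians 14.9 and 0.777), while Adipoq and Plin1 stayed at or under 0.525 FPKM in both. The 4 stellate markers had median sums of 111 (96.2 to 194) and 167 FPKM (137 to 268). The 3 bile duct markers had 38.1 (22.8 to 81.4) and 64.6 FPKM (39.3 to 178), nearly all of it Spp1 (medians 36.7 and 63.5). The other 2 did not share this rise in full. Krt19 had lower restricted medians (0.810 ad libitum and 0.357 restricted), and Epcam had 0.632 and 0.751. No stellate or bile duct marker was at 0 in every library of either group, and the part of these lists in the WT differences was not tested.

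**Figure D2:**
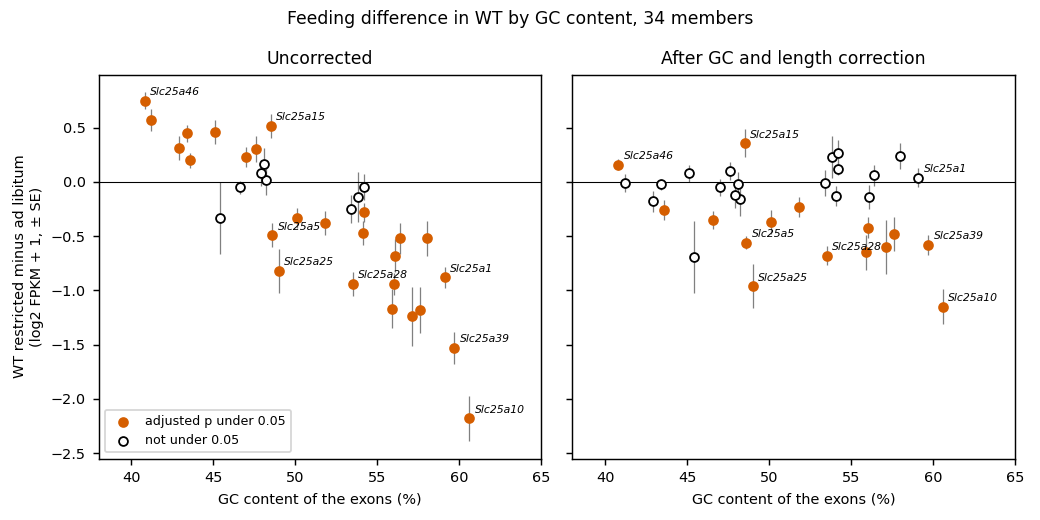
Restricted minus ad libitum difference in WT (log2 of FPKM + 1, ± SE) of 34 carriers against the GC content of their exons (%), before (left) and after (right) correction for GC content and length. Filled points passed at an adjusted p under 0.05; Slc25a10, Slc25a39, Slc25a28 and Slc25a25 are below 0 in both panels, and Slc25a1 moves from -0.88 to 0.04.

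Among the carriers of citrate, dicarboxylates and the malate-aspartate shuttle, 4 of 7 tested fell and 2 rose, and after correction 3 fell. Slc25a10 exchanges malate or succinate for phosphate. In ad libitum WT it was at 36.9, 53.6 and 128 FPKM (lowest, median and highest), and in restricted WT at 3.48, 13.0 and 43.9. The groups overlapped only through the restricted ZT8 library of replicate 1 at 43.9 FPKM, and restricted means were lower at 6 of 6 times. The mean fell from 62.3 ± 26.2 (SD, n = 12) to 15.6 ± 11.6 FPKM (n = 11), by 2.18 ± 0.21 (SE; limma adjusted p = 5.75e-12). After correction it fell by 1.15 (adjusted p = 1.24e-07), and without restricted replicate 2 by 1.23 (adjusted p = 2.07e-06). Slc25a1 exports the citrate used for fatty acid synthesis. It was at 104, 132 and 153 FPKM in ad libitum and at 46.3, 78.6 and 93.9 in restricted WT, so that the groups did not overlap. It fell by 0.88 ± 0.10 (adjusted p = 7.57e-11), but the corrected difference was 0.04 (adjusted p = 0.789). Slc25a22, a glutamate carrier, fell by 1.18 before and by 0.48 after correction (adjusted p = 0.0168). Slc25a13 rose from 88.9 to 104 FPKM (0.23, adjusted p = 0.0150), with a corrected difference of -0.05 (adjusted p = 0.689). Slc25a12 differed by -0.05 (adjusted p = 0.466) and passed only after correction (-0.35, adjusted p = 3.08e-04).

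Of the 5 tested carriers of phosphate and adenine nucleotides, 4 fell and 1 rose. Slc25a5 exchanges matrix ATP for cytosolic ADP. It was at 72.8, 104 and 260 FPKM in ad libitum and at 55.6, 74.0 and 106 in restricted WT, with overlapping groups and lower restricted means at 6 of 6 times. The value of 260 FPKM came from ad libitum ZT16 replicate 2, the library with the highest FPKM sum. Slc25a5 fell by 0.49 (limma adjusted p = 7.97e-05) and after correction by 0.56 (adjusted p = 2.20e-10). Slc25a25 was at 10.7, 19.9 and 32.5 FPKM in ad libitum and at 6.48, 10.3 and 20.05 in restricted WT. These groups overlapped, with lower restricted means at 6 of 6 times, and Slc25a25 fell by 0.82 ± 0.20 (adjusted p = 5.10e-04) and by 0.96 after correction (adjusted p = 1.61e-04). Its relative Slc25a23 fell by 0.52 (adjusted p = 1.02e-03), with a corrected difference of 0.06 (adjusted p = 0.645). Slc25a3 rose from 53.1 to 61.0 FPKM by 0.20 ± 0.07 (adjusted p = 0.0137), whereas after correction it fell by 0.26 (adjusted p = 0.0232).

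Among 8 tested carriers of cofactors and nucleotides, 3 rose and 3 fell, and after correction only 2 passed, both lower. Slc25a17, a carrier of coenzyme A and related nucleotides in peroxisomes, rose from 37.3 to 51.0 FPKM (adjusted p = 4.18e-04), with a corrected difference of 0.08 (adjusted p = 0.424). Slc25a32, linked to folate and FAD, and Slc25a16, linked to coenzyme A, rose by 0.57 and 0.45, but the corrected differences were -0.01 and -0.02.

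The amino acid group had 1 carrier that rose and 1 that fell of 4 tested, and both passed after correction. Slc25a15 was at 83.3, 107 and 167 FPKM in ad libitum and at 126, 179 and 224 in restricted WT. The groups overlapped, with higher restricted means at 6 of 6 times, and the mean rose from 121 to 173 FPKM (0.52 ± 0.11, adjusted p = 7.31e-05; corrected 0.36, adjusted p = 0.0185). Slc25a38, a glycine carrier needed for heme synthesis, fell by 1.17, and by 0.65 after correction. Slc25a20, which carries acylcarnitines into the matrix for fatty acid oxidation, differed by 0.02 (adjusted p = 0.900).

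Of the 3 tested carriers of iron and glutathione, 2 fell before and after correction. Slc25a39 was at 148, 173 and 196 FPKM in ad libitum WT and at 24.4, 59.3 and 179 in restricted WT. Only the restricted ZT24 library of replicate 1 (179 FPKM) reached the ad libitum range, and restricted means were lower at 6 of 6 times. The mean fell from 174 ± 15.7 to 71.6 ± 44.1 FPKM, by 1.53 ± 0.15 (adjusted p = 7.29e-12), and by 0.58 after correction (adjusted p = 5.32e-07). Slc25a28 (mitoferrin 2, an iron importer) was at 7.19, 9.14 and 10.6 FPKM in ad libitum and at 1.61, 3.98 and 8.41 in restricted WT, with overlapping groups. It fell by 0.94 ± 0.11 (adjusted p = 7.50e-10) and by 0.68 after correction (adjusted p = 2.38e-08). Slc25a37 (mitoferrin 1), prominent in red cell precursors, differed by 0.17 (adjusted p = 0.277). The 7 erythroid markers summed to 148 to 3085 FPKM in ad libitum WT (median 518) and to 132 to 890 in restricted WT (median 230), with no marker at 0 in either group, and their part in the iron and heme carriers was not tested.

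Among the remaining 7 tested carriers, 2 rose and 3 fell, and after correction 1 of each passed. Slc25a47 was at 242, 445 and 2151 FPKM in ad libitum and at 69.9, 224 and 686 in restricted WT. The highest value was that of the ZT16 library of replicate 2, which had the highest FPKM sum of all libraries (1097495), and the groups overlapped. The mean fell from 615 ± 511 to 265 ± 175 FPKM (-1.24 ± 0.27, adjusted p = 9.01e-05), and by 0.60 after correction (adjusted p = 0.0496). Slc25a46, which lies in the outer membrane and acts in mitochondrial dynamics, was at 7.12, 8.67 and 9.90 FPKM in ad libitum and at 12.2, 14.3 and 21.9 in restricted WT, with no overlap. It rose by 0.75 ± 0.08 (adjusted p = 1.16e-11), and by 0.16 after correction (adjusted p = 0.0116). Slc25a14, an uncoupling-protein-like carrier, rose by 0.30 (adjusted p = 0.0261), a call lost in 5 of 23 fits that left out 1 library (adjusted p = 0.117 without restricted ZT16 replicate 2).

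**Figure D3:**
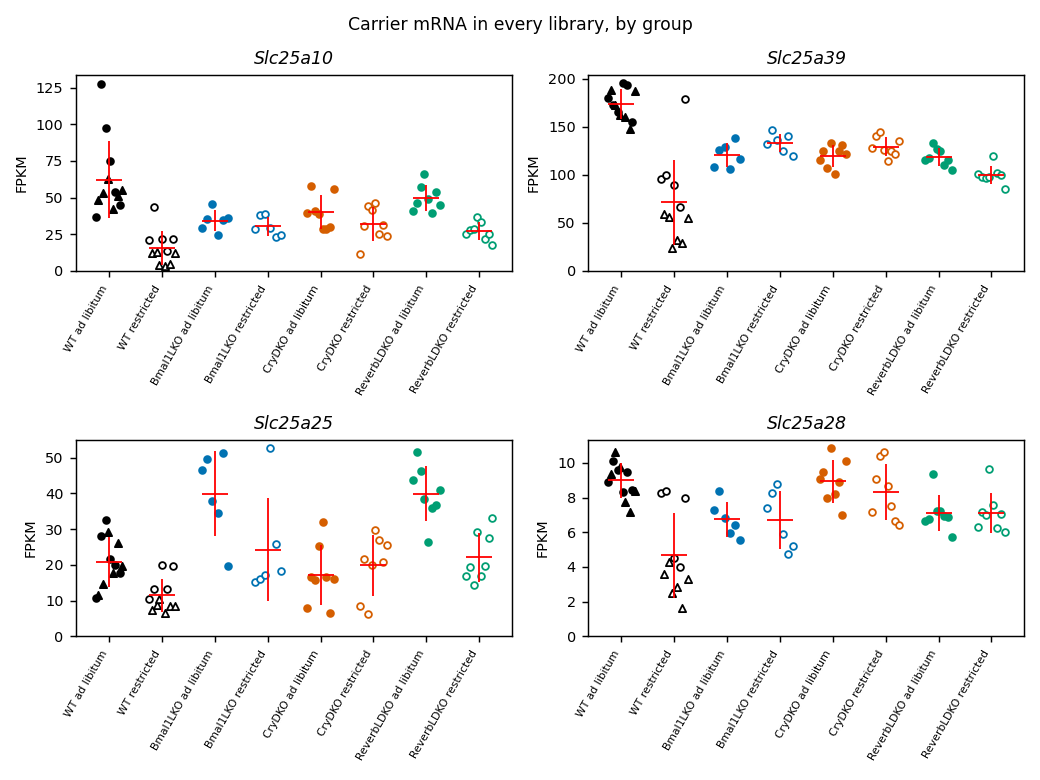
FPKM of Slc25a10, Slc25a39, Slc25a25 and Slc25a28 in every library of the 8 groups; WT replicate 2 libraries are triangles, and the red line and bar are the mean ± SD. In restricted WT the triangles lie lowest for Slc25a10 and Slc25a39, and ad libitum Bmal1LKO and ReverbLDKO stand high for Slc25a25 (medians 42.1 and 39.6 FPKM).

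In the mutants few carriers passed for feeding, with fewer libraries per feeding than in WT and thus less power to call a difference. In Bmal1LKO 0 of 34 passed in limma (2 at an unadjusted p under 0.05), where 0.0402% of all genes passed. In CryDKO 0 passed (3 at an unadjusted p under 0.05), where 0.0201% of all genes did. The voom fit of recovered reads also gave 0 in both Bmal1LKO and CryDKO. With only the groups compared 0 passed in either. There 7 and 4 carriers had an unadjusted p under 0.05, as did 1718 and 966 of 9958 genes. Without WT replicate 2 also 0 passed, and 11 and 7 carriers had an unadjusted p under 0.05 (2429 and 977 genes). In ReverbLDKO 2 of 34 carriers fell, where 3.33% of all genes passed and 2.25% fell. Slc25a25 was at 26.4, 39.6 and 51.5 FPKM in ad libitum and at 14.4, 19.6 and 33.2 in restricted ReverbLDKO, lower at 8 of 8 times with overlapping groups. The mean fell from 40.0 ± 7.59 to 22.2 ± 6.88 FPKM (n = 8 each), by 0.85 ± 0.24 (adjusted p = 0.0352). Slc25a10 was at 39.5, 47.7 and 66.1 FPKM in ad libitum and at 17.8, 26.8 and 36.9 in restricted ReverbLDKO. The groups did not overlap, and the mean fell from 49.7 ± 9.0 to 27.2 ± 6.11 FPKM, by 0.86 ± 0.26 (adjusted p = 0.0481). Both calls lay near the threshold. In ReverbLDKO 0 carriers passed by voom, with median-of-ratios scaling, with no filter on low values or with no time terms, whereas a fit of its own groups alone called 11, 1 higher and 10 lower, where 23.9% of all genes passed and 15.7% fell. The calls of Slc25a25 and Slc25a10 were lost without the 9 libraries holding pancreas reads (Slc25a25 adjusted p = 0.0614, Slc25a10 adjusted p = 0.0891), and in 12 and 15 of 16 fits without 1 library, at most to adjusted p = 0.0935 without restricted ZT9 and 0.118 without ad libitum ZT21. In Bmal1LKO Slc25a25 differed by -0.78 ± 0.28 (adjusted p = 0.341) and in CryDKO by 0.20 ± 0.24 (adjusted p = 1.00).

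The feeding difference itself varied between the 4 genotypes for 20 of 34 carriers, where 47.1% of all genes passed, and for 11 carriers after correction, where 26.1% did. Without restricted WT replicate 2 the number was 8, where 19.2% of all genes passed. Slc25a39, with the WT fall of 1.53, differed by 0.14 ± 0.21 in Bmal1LKO, 0.11 ± 0.18 in CryDKO and -0.25 ± 0.18 in ReverbLDKO (interaction adjusted p = 8.81e-08; corrected adjusted p = 1.10e-04). Slc25a28 differed by -0.03 ± 0.15, -0.10 ± 0.13 and 0.00 ± 0.13 in those mutants (interaction adjusted p = 1.02e-05; corrected adjusted p = 9.61e-05). For Slc25a10 the mutant differences were -0.17 ± 0.30, -0.37 ± 0.26 and -0.86 ± 0.26 (interaction adjusted p = 7.79e-06; corrected adjusted p = 0.0106). For Slc25a1 the interaction passed before (adjusted p = 2.82e-05) and did not pass after correction (adjusted p = 0.420).

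Each mutant was then compared with WT, as the mean difference of both feedings. All 3 comparisons use the same 23 WT libraries, so their values stand side by side and are not independent. Because the WT groups differed by feeding, the difference in each feeding is given too. In Bmal1LKO 8 of 34 carriers passed, 6 higher and 2 lower, where 27.3% of all genes passed (19.7% higher and 7.65% lower). Under median-of-ratios scaling 3 carriers were higher and 5 lower. The split of all genes moved the same way, from 1959 higher and 762 lower to 1318 higher and 1129 lower of 9920. In CryDKO 21 passed, 9 higher and 12 lower, where 65.4% of all genes passed (34.4% higher and 31.0% lower). In ReverbLDKO 21 passed, 10 higher and 11 lower, where 57.8% of all genes passed (30.1% higher and 27.7% lower). All mutant libraries are numbered replicate 1. With the replicate number as a block, 6, 14 and 14 carriers passed in Bmal1LKO, CryDKO and ReverbLDKO. Of all 9958 genes 2268, 4912 and 3426 did so. Median differences of the carriers and of all genes were 0.071 and 0.071 in Bmal1LKO, -0.026 and 0.015 in CryDKO and -0.003 and 0.008 in ReverbLDKO. The split by direction differed with feeding. In Bmal1LKO 5 carriers were higher and 9 lower ad libitum (14.8% and 10.1% of all genes), and 13 were higher and 3 lower restricted (27.8% and 11.3%). In CryDKO 7 were higher and 14 lower ad libitum (24.8% and 30.7% of all genes), and 10 and 9 restricted (33.7% and 27.8%). In ReverbLDKO 6 were higher and 8 lower ad libitum (20.8% and 23.9% of all genes), and 9 and 8 restricted (28.3% and 24.2%). Hepatocyte marker sums had medians of 32870 and 29974 FPKM in Bmal1LKO (ad libitum and restricted, 27249 to 43381 in all) against 55692 and 53677 in WT (43018 to 67797), with no marker at 0. Of these markers Alb, for albumin, had medians of 14753 and 11098 FPKM in Bmal1LKO and of 31116 and 38806 in WT. The other markers did not all go this way. Bmal1LKO medians of Ttr and Apoa1 were lower than WT ad libitum (5957 against 7624, 9341 against 14642). Restricted they were higher (6306 against 4725, 11153 against 7280). Cps1 was higher ad libitum (620 against 366) and lower restricted (547 against 693), and Serpina1a and Tat were lower in both. Bile duct marker sums had medians of 58.5 and 154 FPKM in Bmal1LKO (50.1 to 340) against 38.1 and 64.6 in WT, again nearly all Spp1 (57.2 and 152). Krt19 medians were 0.563 and 1.08 in Bmal1LKO against 0.810 and 0.357 in WT. Those of Epcam were 0.698 and 0.999 against 0.632 and 0.751. The part of these lists in the carrier differences was not tested. Few of the mean-of-both-feedings calls passed in each feeding and after correction: Slc25a25 in Bmal1LKO, Slc25a11, Slc25a12, Slc25a14, Slc25a20 and Slc25a48 in CryDKO, and Slc25a20, Slc25a25 and Slc25a48 in ReverbLDKO.

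**Figure D4:**
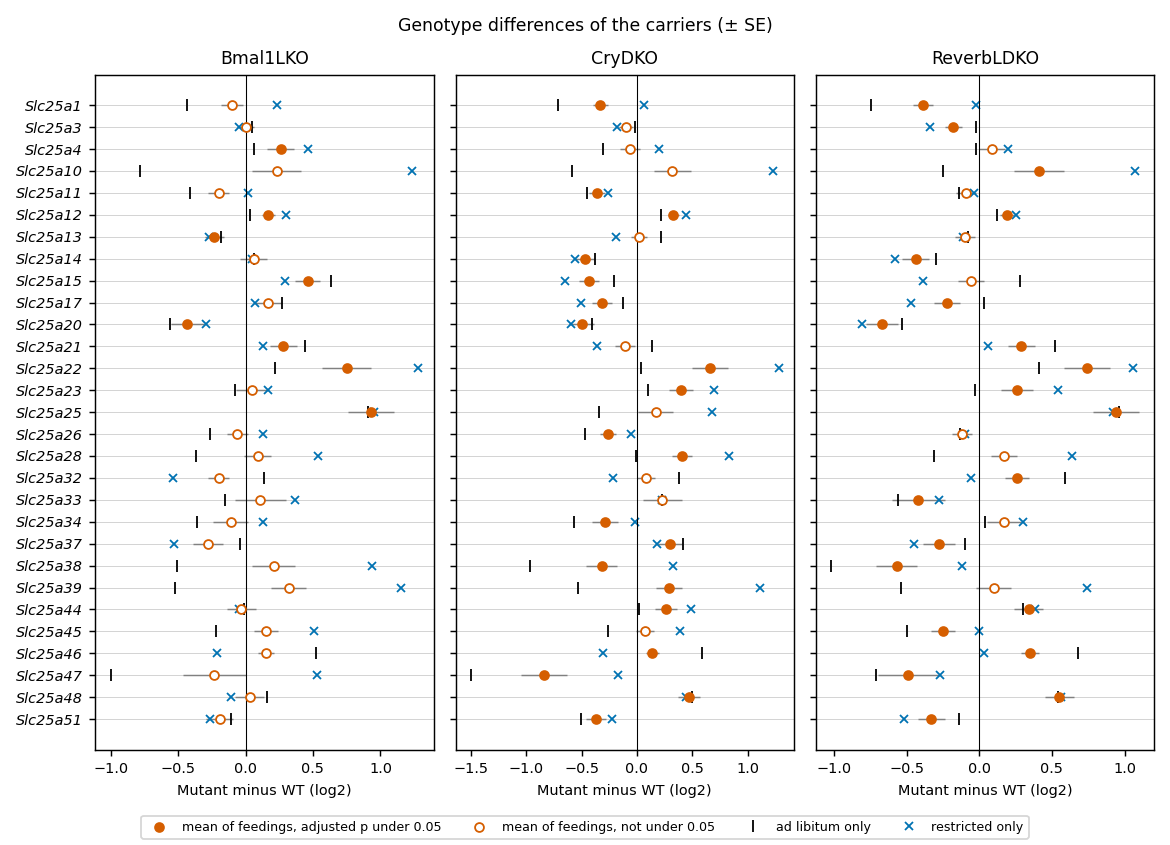
Mutant minus WT differences (log2 of FPKM + 1) of 29 of the 30 carriers that passed in at least 1 mutant; each panel has its own x range. Circles are the mean of both feedings ± SE (filled at an adjusted p under 0.05), vertical ticks ad libitum only and crosses restricted only; Slc25a25 lies near 0.93 in Bmal1LKO and 0.94 in ReverbLDKO in all 3 marks, and Slc25a39 has a tick and a cross on opposite sides of 0 in every mutant.

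Promoter sequence is shown for the 3 carriers that passed in each feeding and after correction in more than 1 mutant, and, for Slc25a1, for its fall in ad libitum mutants described below. The bases lie upstream of a RefSeq transcript start in build GRCm38.p6, from 5′ to 3′ on the strand of the gene. Slc25a25 is at chr2:32424067-32424316 on the minus strand, inside the gene, and is the entry of 3 that held a match. Slc25a20 is at chr9:108661886-108662087 on the plus strand, ended before the first annotated exon. Slc25a48 is at chr13:56438105-56438354 on the plus strand, and Slc25a1 at chr16:17928220-17928469 on the minus strand. Capitals mark matches to the CRE core TGACGTC (reverse GACGTCA), which overlap in Slc25a25, and to the E-box CACGTG in Slc25a1.
Slc25a25: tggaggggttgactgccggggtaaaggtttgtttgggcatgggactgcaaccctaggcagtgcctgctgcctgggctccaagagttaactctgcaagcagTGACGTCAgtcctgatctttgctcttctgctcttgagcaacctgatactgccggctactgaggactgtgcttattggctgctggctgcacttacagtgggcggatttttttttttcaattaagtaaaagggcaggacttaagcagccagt
Slc25a20: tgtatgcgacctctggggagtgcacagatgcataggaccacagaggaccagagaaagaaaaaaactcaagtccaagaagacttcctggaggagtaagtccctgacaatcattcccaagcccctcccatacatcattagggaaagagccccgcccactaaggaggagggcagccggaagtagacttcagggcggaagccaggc
Slc25a48: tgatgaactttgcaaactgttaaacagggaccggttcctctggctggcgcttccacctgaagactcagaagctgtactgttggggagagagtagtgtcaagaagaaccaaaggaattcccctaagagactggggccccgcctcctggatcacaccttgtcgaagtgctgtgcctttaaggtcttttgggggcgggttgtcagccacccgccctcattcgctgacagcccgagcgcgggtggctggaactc
Slc25a1: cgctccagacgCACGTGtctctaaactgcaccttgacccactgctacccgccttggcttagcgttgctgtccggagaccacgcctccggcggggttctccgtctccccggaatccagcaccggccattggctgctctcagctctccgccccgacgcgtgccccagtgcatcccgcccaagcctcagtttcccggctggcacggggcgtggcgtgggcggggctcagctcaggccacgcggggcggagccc

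Among 32851 promoters of 250 bases, 6.02% held the E-box, 2.78% the CRE core and 2.23% the ROR element core TAGGTCA (reverse TGACCTA), on either strand. Counted by gene, 6.86%, 3.16% and 2.55% of 27025 genes held them in at least 1 entry. Of the carriers 36 had entries (46 promoters), and 11 had none. The E-box was found for 7 of 36 carriers in at least 1 entry (Slc25a1, Slc25a13, Slc25a14, Slc25a15, Slc25a31, Slc25a33 and Slc25a36), the CRE core for 4 (Slc25a3, Slc25a25, Slc25a33 and Slc25a36) and the ROR element core for 0. Slc25a20 and Slc25a48 held none of these letters in the windows shown. A match describes the letters only. Several carriers overlap a gene on the opposite strand by some exon bases, among them Slc25a10 (228 bases), Slc25a25 (379), Slc25a46 (383) and Slc25a11 (189). Whether counting used strand is not given in these sources, and reads of such overlaps cannot be assigned.

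Slc25a25 was the carrier with the greatest rise in Bmal1LKO and in ReverbLDKO. Against WT at 10.7, 19.9 and 32.5 FPKM ad libitum and 6.48, 10.3 and 20.05 restricted, Bmal1LKO was at 19.6, 42.1 and 51.4 ad libitum and at 15.3, 17.7 and 52.7 restricted. The ad libitum Bmal1LKO libraries lay above all WT libraries except at ZT24, and the restricted value of 52.7 FPKM came from ZT16. The mean rose from 16.4 ± 7.54 (n = 23) to 32.1 ± 15.1 FPKM (n = 12), by 0.93 ± 0.17 (limma adjusted p = 4.76e-05), with 0.91 ad libitum and 0.95 restricted. In ReverbLDKO the mean rose to 31.1 ± 11.6 FPKM (n = 16), by 0.94 ± 0.16 (adjusted p = 4.05e-06), with 0.96 and 0.92. CryDKO was at 6.61, 16.4 and 32.1 FPKM ad libitum and at 6.26, 21.1 and 29.9 restricted, with a lowest value just under and a highest value just under those of WT.

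Among the other carriers of the phosphate and adenine nucleotide group, Slc25a4 rose in Bmal1LKO (0.26 ± 0.10, adjusted p = 0.0402), a call lost in 18 of 35 fits without 1 library (adjusted p = 0.116 without ad libitum ZT20). Slc25a23 rose in CryDKO (0.40 ± 0.11, adjusted p = 1.16e-03) and in ReverbLDKO (0.26 ± 0.11, adjusted p = 0.0371), with corrected adjusted p = 0.236 and 0.864. Slc25a3 fell in ReverbLDKO by 0.18 ± 0.06 (adjusted p = 7.42e-03), with -0.02 ad libitum and -0.34 restricted. This call was lost after correction. Slc25a5 differed by 0.01, -0.10 and -0.03 in Bmal1LKO, CryDKO and ReverbLDKO (adjusted p = 0.963, 0.295 and 0.736), and after correction it rose by 0.26 in CryDKO and in ReverbLDKO (adjusted p = 7.67e-06 and 1.30e-05).

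Slc25a20 fell in all 3 mutants as the mean of both feedings, but its Bmal1LKO call did not pass in each feeding. WT was at 15.4, 30.9 and 111 FPKM ad libitum and at 23.0, 34.8 and 61.7 restricted, with the highest values at ZT16 in both. Bmal1LKO was at 19.5, 22.0 and 26.8 and at 24.3, 25.9 and 37.5 FPKM. CryDKO was at 22.3, 23.7 and 31.7 and at 13.7, 22.5 and 36.3 FPKM, and ReverbLDKO at 17.3, 24.3 and 25.9 and at 12.7, 18.4 and 28.8. Every mutant range overlapped that of WT, and no mutant library reached the WT ZT16 values of 49.75 to 110.9 FPKM. The WT ZT16 libraries had FPKM sums of 566518 and 1097495 ad libitum and of 517810 and 698391 restricted. Mutant libraries had sums of 386198 to 642932, and the part of FPKM scaling in these ZT16 values was not tested. From a WT mean of 37.4 ± 19.2 FPKM it fell to 25.7 ± 4.90 in Bmal1LKO (-0.43 ± 0.12, adjusted p = 4.90e-03), to 24.6 ± 5.77 in CryDKO (-0.50 ± 0.11, adjusted p = 7.57e-05) and to 21.7 ± 4.75 in ReverbLDKO (-0.67 ± 0.11, adjusted p = 1.61e-06). All 4 WT ZT16 libraries, and 5 mutant libraries, held at least 10 FPKM of pancreas enzyme mRNA (Clps, Cpb1, Pnlip, Prss2, Amy2a5 and Ctrb1), from 96.83 to 2693.67 FPKM at WT ZT16. Without those 9 libraries Slc25a20 was lower by 0.23, 0.29 and 0.46 in the mutants named in this order (adjusted p = 0.0318, 4.57e-03 and 9.83e-05). Pancreas reads and ZT16 cannot be told apart in WT.

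In the other amino acid carriers, Slc25a15 rose in Bmal1LKO from 146 ± 39.8 to 200 ± 44.6 FPKM (0.46 ± 0.09, adjusted p = 2.03e-04), with 0.63 ad libitum and 0.29 restricted (adjusted p = 0.0833). In CryDKO it fell to 106 ± 16.7 FPKM (-0.43 ± 0.09, adjusted p = 3.65e-05), with -0.21 ad libitum (adjusted p = 0.137) and -0.65 restricted. WT Slc25a15 lay at 83.3 to 167 FPKM ad libitum and at 126 to 224 restricted, so the CryDKO ad libitum range of 89.9 to 131 lay within that of ad libitum WT. Slc25a44, a carrier of branched-chain amino acids, rose in CryDKO (0.26 ± 0.10, adjusted p = 0.0251) and ReverbLDKO (0.34 ± 0.10, adjusted p = 4.09e-03). The CryDKO call was lost in 4 of 39 fits without 1 library (adjusted p = 0.0592 without ad libitum ZT3).

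Among carriers of citrate, dicarboxylates and the malate-aspartate shuttle, Slc25a12 rose in CryDKO from 2.32 ± 0.462 to 3.20 ± 0.754 FPKM. The difference was 0.33 ± 0.05 (limma adjusted p = 1.12e-07), with 0.22 ad libitum and 0.44 restricted. Slc25a12 also rose in Bmal1LKO (0.17 ± 0.05, adjusted p = 0.0140) and ReverbLDKO (0.19 ± 0.05, adjusted p = 9.68e-04), where the ad libitum differences of 0.03 and 0.12 did not pass. The ReverbLDKO call of Slc25a12 was lost after correction. Slc25a11, which exchanges oxoglutarate for malate, fell in CryDKO from 40.0 ± 9.51 to 30.5 ± 5.37 FPKM (-0.36 ± 0.07, adjusted p = 3.41e-05), with -0.45 and -0.26. Slc25a22 rose in all 3 mutants (0.75 ± 0.18, 0.66 ± 0.16 and 0.74 ± 0.16), with 0.22, 0.04 and 0.41 ad libitum against 1.28, 1.28 and 1.06 restricted. After correction the CryDKO difference was 0.27 (adjusted p = 0.0606). Restricted WT was the lowest of the 8 groups for Slc25a22, with a median of 11.2 FPKM. Slc25a1 fell in CryDKO (-0.33 ± 0.07, adjusted p = 2.04e-04) and in ReverbLDKO (-0.39 ± 0.07, adjusted p = 3.44e-05). Ad libitum the differences were -0.71 and -0.75, with mutant ranges of 59.4 to 90.6 and 56.4 to 91.0 FPKM below the WT range of 104 to 153. Restricted they were 0.06 (adjusted p = 0.633) and -0.02 (adjusted p = 0.867). After correction Slc25a1 was lower by 0.43 and 0.50 as the mean of both feedings. Slc25a13 fell in Bmal1LKO from 96.1 ± 15.3 to 81.9 ± 8.44 FPKM (-0.23 ± 0.07, adjusted p = 0.0167; corrected adjusted p = 0.113). Slc25a10 passed in ReverbLDKO (0.41 ± 0.17, adjusted p = 0.0327), made of -0.25 ad libitum and 1.07 restricted, and did not pass after correction (adjusted p = 0.523).

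Of the cofactor carriers, 4 fell in CryDKO and 0 rose. Slc25a51, which brings NAD+ into mitochondria, fell in CryDKO from 12.3 ± 4.06 to 9.32 ± 2.78 FPKM (-0.37 ± 0.09, adjusted p = 4.86e-04) and in ReverbLDKO to 9.49 ± 2.27 (-0.33 ± 0.09, adjusted p = 2.06e-03). Neither Slc25a51 call passed in each feeding. Slc25a17 fell by 0.32 in CryDKO and by 0.22 in ReverbLDKO, with corrected adjusted p = 0.176 and 0.623. Slc25a26, the S-adenosylmethionine carrier, fell in CryDKO (-0.26 ± 0.07, adjusted p = 1.89e-03), with -0.47 ad libitum and -0.05 restricted, and did not pass without the libraries holding pancreas reads (adjusted p = 0.0881). Slc25a32 rose in ReverbLDKO (0.26 ± 0.08, adjusted p = 3.20e-03), with 0.59 ad libitum and -0.06 restricted.

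All 3 tested iron and glutathione carriers rose in CryDKO and 1 fell in ReverbLDKO. Slc25a28 rose in CryDKO from 6.92 ± 2.85 to 8.63 ± 1.43 FPKM (0.41 ± 0.09, adjusted p = 8.30e-05), made of -0.01 ad libitum and 0.83 restricted. Slc25a39 passed in CryDKO (0.29 ± 0.12, adjusted p = 0.0286) although both means were 125 FPKM, since its difference was -0.53 ad libitum and 1.11 restricted, and it did not pass after correction (adjusted p = 0.408). Slc25a37 rose in CryDKO (0.30 ± 0.11, adjusted p = 0.0115) and fell in ReverbLDKO (-0.28 ± 0.11, adjusted p = 0.0232). Erythroid marker sums had medians of 1201 and 920 FPKM in CryDKO and of 680 and 651 in ReverbLDKO (ad libitum and restricted), above 518 and 230 in WT, and their part in these carriers was not tested.

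Slc25a48, linked to choline uptake into mitochondria, rose in CryDKO and ReverbLDKO. WT was at 1.04, 3.03 and 6.45 FPKM ad libitum and at 0.790, 3.04 and 5.07 restricted. CryDKO was at 3.11, 5.04 and 5.65 and at 1.96, 4.57 and 6.52 FPKM, and ReverbLDKO at 3.53, 5.06 and 6.98 and at 2.45, 5.23 and 7.07. The ranges overlapped, with all mutant medians above the WT medians. The mean rose from 3.25 ± 1.39 to 4.69 ± 1.25 FPKM in CryDKO (0.47 ± 0.10, limma adjusted p = 6.33e-05) and to 5.03 ± 1.39 in ReverbLDKO (0.55 ± 0.10, adjusted p = 9.58e-06). Slc25a14 fell in both, from 1.97 ± 1.05 to 1.05 ± 0.260 FPKM (-0.47 ± 0.09) and to 1.09 ± 0.178 FPKM (-0.44 ± 0.09). Slc25a46 rose in ReverbLDKO (0.35 ± 0.06), with 0.68 ad libitum and 0.03 restricted. Slc25a47 fell in CryDKO from 448 ± 420 to 195 ± 61.7 FPKM (-0.84 ± 0.21, adjusted p = 5.81e-04), by 1.5 ad libitum, with -0.17 restricted (adjusted p = 0.629). Without the libraries holding pancreas reads the Slc25a47 difference was -0.42 (adjusted p = 0.0588). In ReverbLDKO Slc25a47 fell by 0.49 ± 0.21 (adjusted p = 0.0424), a call lost in 17 of 39 fits without 1 library (adjusted p = 0.0872 without restricted WT ZT16 replicate 1) and with -0.14 without the pancreas-read libraries (adjusted p = 0.594).

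A further 9 calls were lost in at least 1 fit without 1 library. They were Slc25a21 in Bmal1LKO (adjusted p = 0.0662 without restricted ZT20), and in CryDKO Slc25a34 (0.0819 without restricted ZT18), Slc25a38 (0.0941 without restricted WT ZT16 replicate 1), Slc25a39 (0.0705 without restricted WT ZT12) and Slc25a46 (0.0735 without restricted WT ZT16 replicate 1). In ReverbLDKO they were Slc25a10 (adjusted p = 0.0767 without restricted WT ZT12), Slc25a17 (0.0698), Slc25a23 (0.0875) and Slc25a33 (0.0772), the last 3 without restricted WT ZT16 replicate 2. The Slc25a33 call was also lost after GC correction. Without the 9 libraries holding pancreas reads, 7 of 21 calls in CryDKO were lost (Slc25a26, Slc25a34, Slc25a37, Slc25a38, Slc25a44, Slc25a46 and Slc25a47) and 6 of 21 in ReverbLDKO (Slc25a3, Slc25a17, Slc25a23, Slc25a32, Slc25a33 and Slc25a47), while all 8 in Bmal1LKO were kept. In ReverbLDKO the carriers Slc25a38 (-0.57 ± 0.14) and Slc25a45 (-0.25 ± 0.08) fell and Slc25a21 (0.29 ± 0.09) rose, and these calls were kept in every fit without 1 library.

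Rhythms over the day were tested as a cosine and sine of ZT with a period of 24 h. In ad libitum WT 10 of 34 carriers passed, where 29.7% of all genes did. Slc25a51 was lowest at ZT4 and ZT24 (5.39 to 10.38 FPKM) and highest at ZT12 and ZT16 (15.12 to 20.40). Its fitted amplitude was 0.69 with a peak at ZT14.0 (limma adjusted p = 1.53e-04), and the call was kept in every fit without 1 library (adjusted p at most 2.10e-03) and in a fit of ad libitum WT alone (adjusted p = 0.0321). Slc25a32 was at 5.0 and 3.48 FPKM at ZT12 and at 1.15 and 1.11 at ZT24, with an amplitude of 0.54 and a peak at ZT11.5 (adjusted p = 3.98e-04, and 0.0321 in that group alone). Slc25a48 was at 6.45 and 4.89 FPKM at ZT8 and at 2.50 and 1.04 at ZT16, with an amplitude of 0.62 and a peak at ZT7.8 (adjusted p = 1.37e-03, and 0.0588 in that group alone). Slc25a20 had 52.48 and 110.9 FPKM at ZT16 and 15.43 to 41.41 at other times, with an amplitude of 0.65 and a peak at ZT17.7 (adjusted p = 2.31e-03, and 0.202 in that group alone). The ad libitum WT ZT16 libraries held pancreas reads and had FPKM sums of 566518 and 1097495. They also gave the ZT16 values of Slc25a51 and Slc25a48 above. Without the 9 libraries holding pancreas reads, in all groups, the adjusted p of Slc25a20 was 0.0278. That fit is not reported here for Slc25a51 and Slc25a48. The other 6 were Slc25a5, Slc25a12, Slc25a14, Slc25a33, Slc25a38 and Slc25a45, each lost in at least 1 fit without 1 library.

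**Figure D5:**
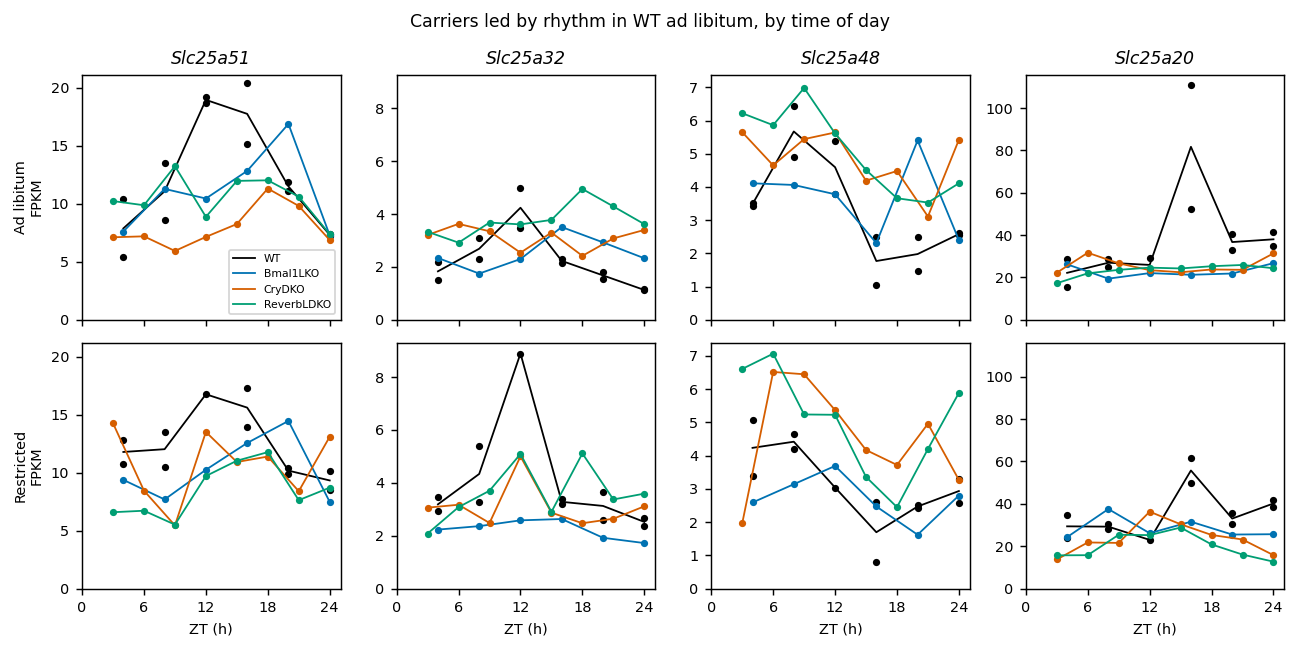
FPKM of Slc25a51, Slc25a32, Slc25a48 and Slc25a20 by ZT (h), ad libitum above and restricted below; points are libraries and lines join the means at each time. WT Slc25a51 and Slc25a32 are highest around ZT12, WT Slc25a20 peaks at ZT16 with 110.9 FPKM, and the single restricted WT library at ZT12 holds the Slc25a32 value of 8.89.

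In restricted WT 13 of 34 carriers passed, where 20% of all genes did. In a fit of that group alone 0 carriers passed (0.613% of all genes), and after GC correction 4 did (15.6%). Slc25a32 led, with an amplitude of 0.47 and a peak at ZT11.3 (adjusted p = 4.78e-03). Its highest value, 8.89 FPKM, was the single ZT12 library, and without it the adjusted p was 0.192. All 13 calls were lost in at least 1 fit without 1 library. Slc25a51 did not pass in restricted WT (amplitude 0.35, adjusted p = 0.0942). In the mutants 3 carriers passed, all in restricted CryDKO, where 7.23% of all genes did. These were Slc25a12 (adjusted p = 5.06e-03), Slc25a13 (adjusted p = 0.0159) and Slc25a16 (adjusted p = 0.0216), and 0 remained without the ZT3 library, in which Slc25a13 was at 41.35 FPKM. The other 5 mutant groups had 0 calls in limma, with 1 to 7 carriers at an unadjusted p under 0.05 and 0 calls by voom, where 0.0301% and 0.512% of all genes passed in ad libitum and restricted Bmal1LKO, 0.0502% in ad libitum CryDKO and 0.0301% and 3.95% in ReverbLDKO. The rhythm differed from WT for Slc25a51 (adjusted p = 0.0164) and Slc25a32 (adjusted p = 0.0231) in CryDKO, where 2.97% of all genes passed, and for Slc25a32 in ReverbLDKO (adjusted p = 0.0189), where 2.67% did. None of the 3 passed when only the groups compared were fitted (adjusted p = 0.0553, 0.0987 and 0.0607). The CryDKO calls were lost without 1 library, at most to adjusted p = 0.0508 for Slc25a51 (without restricted ZT24) and 0.0832 for Slc25a32 (without restricted WT ZT12). In Bmal1LKO 0 carriers differed in rhythm from WT in limma (6 at an unadjusted p under 0.05) or by voom, where 1.02% of all genes did.

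Other genes of carrier biology were counted from lists. In WT feeding, 3 of 3 tested family members under other symbols passed, where 28.6% of all genes rose and 35.4% fell (8.83% and 30.4% after correction). Mtch1 (-0.97) and the uncoupling protein gene Ucp2 (-0.88) fell, by 0.37 and 0.46 after correction. Mtch2 rose (0.39), with a corrected difference of -0.17 (limma adjusted p = 0.466). Of 11 tested genes for import of carriers, 2 rose and 3 fell, and 1 and 3 did so after correction. Timm13, a chaperone of the intermembrane space, fell by 2.89 and by 2.02 after correction, and Tomm40, the outer membrane channel of import, fell by 1.57 and 1.23. Of 5 genes for the pyruvate carrier and outer membrane channels, 3 rose and 1 fell, and 2 rose and 3 fell after correction. The pyruvate carrier gene Mpc1 fell by 2.11 and 2.26, while the channel genes Vdac1, Vdac2 and Vdac3 rose by 0.27, 0.41 and 0.41, with corrected differences of 0.33, 0.16 and -0.27. Among 22 enzymes that the carriers serve, 2 rose and 9 fell, and 1 and 8 did so after correction. Pcx, for pyruvate carboxylase, fell by 1.46 and by 0.74 after correction, and Mdh2, for matrix malate dehydrogenase, by 0.90 and 0.89. In CryDKO, where 31.0% of all genes fell and 34.4% rose, 8 of 11 import genes fell and 1 rose (7 and 1 after correction), led by Timm8b (-1.09) and with Tomm40 (0.48) as the rise. In ReverbLDKO, where 27.7% of all genes fell and 30.1% rose, 7 fell and 1 rose (5 and 2 after correction). Of the enzymes, 6 rose and 9 fell in CryDKO (6 and 7 after correction), with Me1, for cytosolic malic enzyme, at -2.23 and Oat, for ornithine aminotransferase, at -1.30. In ReverbLDKO 9 enzymes rose and 1 fell (11 and 1 after correction).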

How the data were processed

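Poly(A) mRNA of mouse liver was sequenced in 67 stranded libraries. The deposited values are gene-level FPKM (45808 rows), made by the authors with STAR, featureCounts and DESeq2 on GRCm38, per the submitters' processing notes; neither versions nor a strand setting are stated there. FPKM sums ran from 386198 to 1097495, the highest in ad libitum WT ZT16 replicate 2. Whole reads were recovered from the steps of low values (84.2% to 88.2% of values of at most 20 reads lay within 0.1 of a whole number), giving 9.09 to 36.01 M reads per library; counting error is therefore larger for low carriers. Rows were matched to GENCODE vM21 by symbol (41828 rows, all 47 carriers).

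The test covered 9958 genes whose mean reached 1 FPKM, on log2(FPKM + 1), a scale that understates changes of low genes, and used 1 limma fit (limma 3.58.1, R 4.3.3) of all 67 libraries, with a level and a cosine and sine of ZT (period 24 h) for each of 8 groups and Benjamini-Hochberg adjustment over all genes at 0.05. In all 19 comparisons were made: feeding in 4 genotypes and its difference between them, 3 mutants against WT, 8 rhythms and 3 rhythm differences. Alternatives were a pseudocount of 0.1, no filter, median-of-ratios scaling, GC and length correction, no time terms, the groups compared alone, a replicate block, 1 feeding alone, voom on recovered reads and leaving out each library; leaving out libraries with pancreas reads (at least 10 FPKM) or restricted WT replicate 2 was chosen after seeing the data.

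The carriers, role groups and gene lists were chosen with earlier results of these data known. Every carrier above the filter could be named, with full statistics for up to 6 per comparison by smallest adjusted p and for the 10 of highest mean; others were named beside the result they bear on. The values of 1 tested carrier are not reported here; counts over all tested carriers include it. Promoter sequences are from RefSeq (GRCm38.p6). Figures were drawn with matplotlib 3.10.9 in Python 3.11.15.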

Additional observations from a re-analysis of the deposited data

Results flagged for a closer look

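Within groups of 6 or 8 libraries, 198 sets of values of 33 carriers were examined for a library far from the others, and 17 were found; chance gives about 1 in 20. In Bmal1LKO these were Slc25a5 in ad libitum ZT8 (71.5 FPKM, lowest), Slc25a34 and Slc25a42 in ad libitum ZT24 (2.75 and 19.5, highest) and Slc25a25 in restricted ZT16 (52.7, highest, next 25.9). In ad libitum CryDKO, ZT21 stood apart for Slc25a23 (44.7, lowest), Slc25a26 (3.95), Slc25a30 (32.5) and Slc25a47 (354 FPKM), ZT18 for Slc25a15 (131) and ZT12 for Slc25a17 (40.0). In restricted CryDKO, ZT3 was lowest for Slc25a13 (41.4 FPKM, next 85.1) and Slc25a21 (0.438, next 2.18), and ZT12 highest for Slc25a32 (5.0). In ReverbLDKO, ad libitum ZT3 was lowest for Slc25a20 (17.3), and the highest values were Slc25a28 in ad libitum ZT9 (9.37) and restricted ZT12 (9.67) and Slc25a44 in restricted ZT21 (32.1 FPKM).

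The feeding difference varied between the 4 genotypes for 20 carriers (limma interaction, Benjamini-Hochberg adjusted p), of which 19 are given here. The values were 2.82e-05 for Slc25a1, 0.00204 for Slc25a5, 7.79e-06 for Slc25a10, 0.0370 for Slc25a13, 0.00905 for Slc25a15 and 2.61e-05 for Slc25a16. They were 0.0461 for Slc25a21, 0.00655 for Slc25a22, 0.0465 for Slc25a23, 0.0188 for Slc25a25, 0.0216 for Slc25a26, 1.02e-05 for Slc25a28 and 0.000321 for Slc25a32. They were 0.000150 for Slc25a38, 8.81e-08 for Slc25a39, 0.00128 for Slc25a45, 6.38e-08 for Slc25a46, 0.00788 for Slc25a47 and 0.0310 for Slc25a51. Without 1 library the calls of Slc25a13 (adjusted p = 0.120 without restricted CryDKO ZT3), Slc25a21 (0.0891 without restricted WT ZT12), Slc25a23 (0.0949 without restricted WT ZT16 replicate 2), Slc25a25 (0.0657 without restricted CryDKO ZT6) and Slc25a51 (0.0677 without restricted CryDKO ZT12) were lost. After GC correction and without restricted WT replicate 2 alike, Slc25a10, Slc25a28, Slc25a38, Slc25a39 and Slc25a46 were among the carriers that passed. Among those that did not pass without that replicate were Slc25a5 (adjusted p = 0.0564), Slc25a15 (0.117), Slc25a22 (0.240), Slc25a25 (0.0603) and Slc25a47 (0.137).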

How the results depend on the processing

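Counts below are carriers called of 34; the cause of each change was not tested. GC and length correction gave 15 for feeding in WT (26 without it), 11 for its difference between genotypes (20), 14 for Bmal1LKO against WT (8), and, for rhythms, 4 in restricted WT (13), 1 in restricted Bmal1LKO (0), 6 in restricted CryDKO (3), 4 in restricted ReverbLDKO (0) and 1 for the Bmal1LKO difference (0). Feeding in ReverbLDKO (2) gave 0 under no filter, median-of-ratios scaling, no time terms, voom and without pancreas-read libraries, 1 with a pseudocount of 0.1 and 11 with its own groups alone. Bmal1LKO against WT gave 14 ad libitum, 16 restricted and 16 without pancreas-read libraries; without these libraries CryDKO and ReverbLDKO against WT gave 15 each (21). Rhythm counts with no filter were 6 in ad libitum WT (10), 8 in restricted WT and 1 for the CryDKO difference (2). With only the groups compared they were 2 and 0 in ad libitum and restricted WT, 0 in restricted CryDKO, 3 in restricted ReverbLDKO and 0 for the CryDKO and ReverbLDKO differences. Restricted CryDKO gave 5 under median-of-ratios scaling and under voom. Without pancreas-read libraries rhythms gave 20 in restricted WT, 1 in restricted Bmal1LKO and 4 in restricted ReverbLDKO. The Bmal1LKO, CryDKO and ReverbLDKO rhythm differences then gave 5, 8 and 10. Counts over all 9958 genes rose too. Without these libraries 4162 genes passed for the restricted WT rhythm (1990 with them) and 4278 for Bmal1LKO against WT (2721). The 3 rhythm differences then gave 2121, 2506 and 2484 genes (102, 296 and 266 with them). After GC correction 3237 of 9581 genes passed for Bmal1LKO against WT.

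Leaving out 1 library or the libraries of 1 WT replicate number gave 10 to 27 for feeding in WT, 0 to 7 in ReverbLDKO, 8 to 25 for its difference between genotypes, and 7 to 13, 19 to 23 and 16 to 22 for Bmal1LKO, CryDKO and ReverbLDKO against WT. Rhythm ranges were 4 to 12 and 1 to 15 in ad libitum and restricted WT, 0 to 2, 0 to 8 and 0 to 5 in restricted Bmal1LKO, CryDKO and ReverbLDKO, and 0 to 3, 0 to 5 and 0 to 6 for their differences.

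The difference between WT replicates 1 and 2 was correlated over genes between the feedings at ZT4, 8, 16 and 20 (r of 0.40, 0.63, 0.61 and 0.54). At ZT24 r was -0.29. A batch shared by number is not labelled and was not tested, and the main fit leaves the number out. All mutant libraries are numbered 1, so WT replicate 2 enters every comparison with WT. With the replicate number as a block, mutants against WT gave 6 for Bmal1LKO (6 higher, 0 lower), 14 for CryDKO (4 higher, 10 lower) and 14 for ReverbLDKO (7 each way), and 2 rhythms passed in restricted ReverbLDKO, and 1 and 4 rhythm differences in Bmal1LKO and ReverbLDKO. In the block Slc25a39 in CryDKO was -0.03 and Slc25a10 in ReverbLDKO -0.06.

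Named carriers kept direction and call in 3212 of the values recomputed, lost the call in 347 and changed sign in 25. With GC correction the WT feeding differences that changed sign were Slc25a1 (0.04), Slc25a3 (-0.26), Slc25a11 (0.12), Slc25a13 (-0.05), Slc25a16 (-0.02), Slc25a21 (-0.18), Slc25a23 (0.06), Slc25a32 (-0.01) and Slc25a34 (0.24). Leaving out a WT replicate number, Slc25a11 was -0.51 (replicate 1 out) and 0.00 (replicate 2 out). In CryDKO the sign changed in restricted libraries for Slc25a1 (0.06), Slc25a38 (0.33) and Slc25a46 (-0.31), and ad libitum for Slc25a28 (-0.01) and Slc25a39 (-0.53). Slc25a39 in CryDKO was 0.58 without WT replicate 1, -0.07 without WT replicate 2 and -0.05 without its restricted libraries alone. In ReverbLDKO the sign changed ad libitum for Slc25a10 (-0.25), Slc25a17 (0.03) and Slc25a23 (-0.03), and restricted for Slc25a32 (-0.06). Slc25a10 in ReverbLDKO was 0.83 without WT replicate 1, -0.15 without WT replicate 2 and -0.07 without its restricted libraries alone. Depth limits the low carriers most, such as Slc25a14 with a median of 48 reads.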
